A study of Mus musculus with 6 samples.

Results

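Notch receptors, their Jagged ligands and the target genes of the pathway were examined in mesenchymal stromal cells (MSCs) engineered to carry the thymoproteasome (TPr), the proteasome form of cortical thymic epithelium. The members were chosen by symbol as Notch1, Notch2, Notch3, Notch4, Jag1, Jag2, Hes1, Hey1, Hey2 and Heyl, and all 10 were found among the 23420 genes counted. RNA-seq was made from 6 libraries, with 3 under the label Ctl MSC and 3 under the label MSC-TPr, all of polyadenylated RNA from mouse bone marrow-derived MSCs. Both groups came from cells of young adult female C57BL/6 mice grown in AMEM with serum and transduced with the AP2 retroviral construct, which carries eGFP. The Ctl MSC cells received the empty construct and the MSC-TPr cells the construct coding for β1i, β2i and β5t. The cells are a bulk transduced population, and the sources used here do not say whether the libraries of a group came from separate cultures, so p-values measure only the spread between these libraries.

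Notch receptors are single-pass proteins of the cell surface that are activated by ligands on a neighbouring cell. Binding of a Jagged or Delta-like ligand lets ADAM proteases and then gamma-secretase cut the receptor, and the freed intracellular domain enters the nucleus, where it joins the DNA-binding protein RBPJ and a Mastermind coactivator. Genes of the HES and HEY families, which code for transcriptional repressors, are the classical targets. In bone marrow stroma the pathway is known for its part in the stem cell niche and in holding back osteoblast differentiation, while NOTCH3 is known from pericytes and vascular smooth muscle and NOTCH4 from endothelium.

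The libraries held 16158756 to 22158887 gene-assigned reads, and levels are given as counts per 1000000 reads (CPM) of the library size scaled by the TMM method, in which 3 reads correspond to 0.139 to 0.181 CPM (counting error only). The libraries numbered 1 did not sit with their labels. The first principal component held 56.9% of the variance and placed Ctl MSC 1 at −40.65, beside MSC-TPr 2 and 3 at −53.05 and −52.62, whereas MSC-TPr 1 at 40.79 was beside Ctl MSC 2 and 3 at 53.55 and 51.97. A score of 16 cell division genes, their mean log2 CPM, split the libraries in the same way, with 6.62, 6.50 and 6.60 in Ctl MSC 1, MSC-TPr 2 and MSC-TPr 3 and 3.21 to 3.24 in the other libraries. The transduced genes Psmb9, Psmb10 and Psmb11 overlapped between the groups, so that a direction below is one between library labels. Psmb11 had 1 to 6 reads per library, too few to check the labels by. Psmb10 measured 27.8, 8.81 and 8.38 CPM across Ctl MSC 1 to 3, against 8.97, 17.3 and 15.2 CPM across MSC-TPr 1 to 3. Psmb9 measured 3.38, 0.801 and 0.827 CPM, against 0.554, 1.24 and 1.21 CPM. Both thus split the libraries as the cell division genes did. Of the MSC markers, Eng, Cd44, Ly6a and Itgb1 were all at 138 CPM or more in every library, but Thy1 (CD90) had 1 read in all 6 libraries. Lepr was at 0.441 to 2.13 CPM, Pdgfra at 30.7 to 188 CPM and Cxcl12 at 67.9 to 1408 CPM. Nt5e (CD73) was lower without overlap, at 11.4 to 20.2 CPM across Ctl MSC and 2.66 to 5.24 CPM across MSC-TPr (log2 fold change −2.02, SE 0.3501, edgeR adjusted p = 0.079), and DESeq2 called 1 of the 10 MSC markers lower. Endothelial markers summed to 2.96 to 7.96 CPM across Ctl MSC and 4.82 to 26.1 CPM in the MSC-TPr libraries (Vwf made up 21.4 CPM of MSC-TPr 1), with Tie1 and Cldn5 at 0 throughout, and haematopoietic markers to 1.995 to 14.3 CPM over all libraries, with Emr1 and Cd3e at 0. In bulk RNA, more cells of a type and more RNA per cell cannot be told apart.

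Over all libraries, the members that differed by label without overlap were Jag1, Hes1, Hey2 and Notch3, each with its lowest MSC-TPr library above its highest Ctl MSC library. These are 4 of the 10 members, and 4 of the 7 members that passed the filter on low counts. Among the 11974 genes that passed this filter, 10.6% were higher and 12.1% lower without overlap. Mean levels differed 2.20-fold for Jag1, 2.39-fold for Hes1, 4.14-fold for Hey2 and 4.32-fold for Notch3. The lack of overlap holds for the labels as given. Whether the labels of Ctl MSC 1 and MSC-TPr 1 were exchanged was not tested. With Ctl MSC 1 grouped with MSC-TPr 2 and 3, and MSC-TPr 1 with Ctl MSC 2 and 3, all 4 overlapped. Jag1 was then at 7.01, 25.5 and 24.6 CPM against 24.1, 13.5 and 13.2 CPM. Notch4 did not overlap in that grouping, at 1.15, 1.01 and 2.23 CPM against 0.609, 0.321 and 0.276 CPM. A gene counted as called where its Benjamini-Hochberg adjusted p was under 0.05 and its log2 fold change was 0.5 or more in size. Over all 6 libraries edgeR's quasi-likelihood test called 0 members, and of all genes tested it called 0.0251% higher and 0.401% lower. An unadjusted p under 0.05 was found for 4 members and for 1801 of all 11974 genes tested. DESeq2 called 4 members higher over the same libraries, again Jag1, Hes1, Hey2 and Notch3, and 0 lower, against 1.89% and 3.39% of its tested genes. Over libraries 2 and 3 of each group, edgeR called 5 members higher and 1 lower, where 20.6% and 19.4% of all genes tested were called. DESeq2 on these 4 libraries also gave 5 and 1, against 18.6% and 16.6%. In these 4 libraries the label cannot be told apart from cell division, as all 16 cell division genes were called higher there by edgeR. The libraries were also set apart because earlier results of these data had placed those numbered 1 with the other label. Both limits hold for each value given below over libraries 2 and 3.

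**Figure D1:**
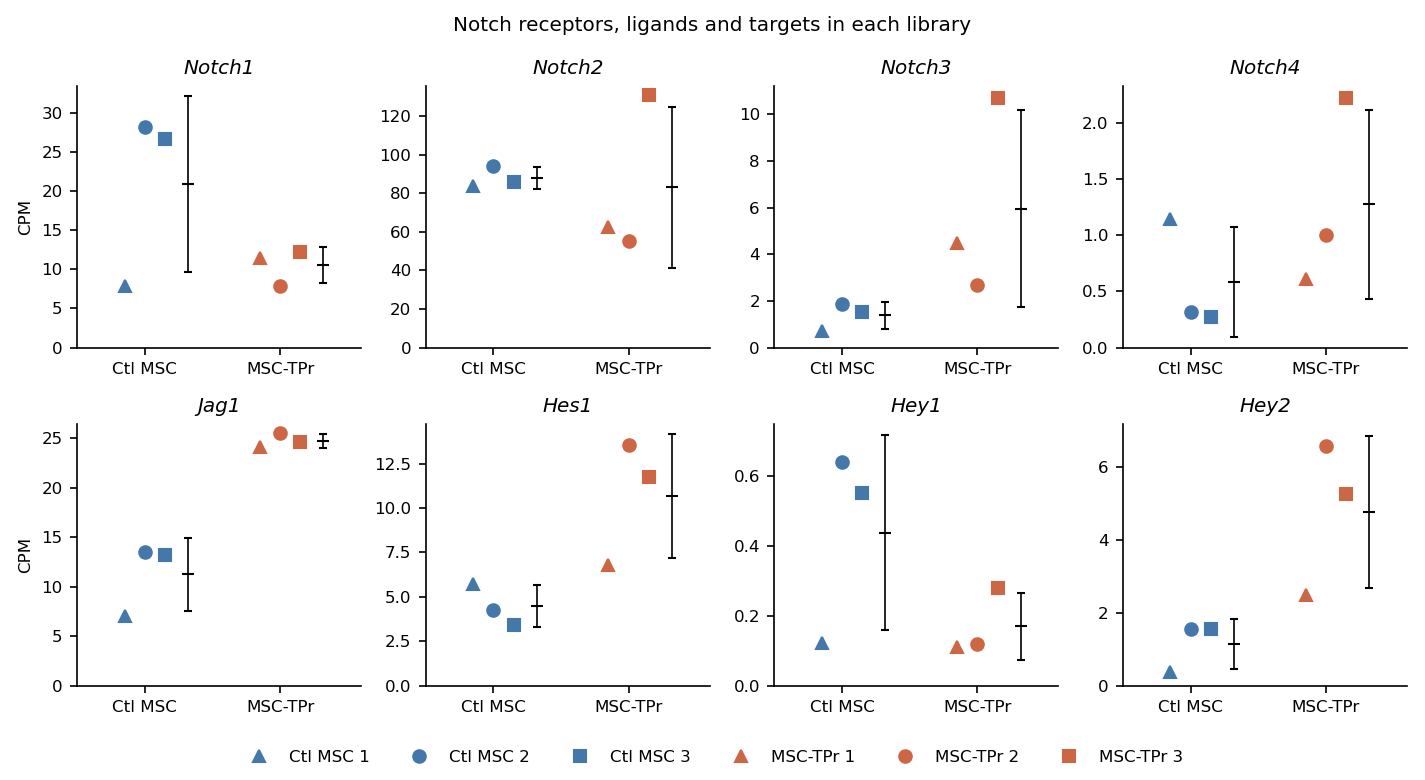
Levels in CPM (vertical axis of each panel, starting at 0) of 8 members in the 3 Ctl MSC and 3 MSC-TPr libraries, with the symbol giving the library number and the black bars the mean ± SD (n = 3). All MSC-TPr points of Notch3, Jag1, Hes1 and Hey2 lie above all Ctl MSC points, while those of the other panels overlap.

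The promoters of members that were higher without overlap are shown, since that of Hey2 holds the letters of the RBPJ core. RefSeq promoter windows of 300 bases (250 before the start of the gene and 50 after it, GRCm38.p6, the same assembly as mm10) were matched by symbol for 7 of the 10 members, namely the 4 receptors, Jag1, Jag2 and Hey2. The RBPJ core TGGGAA was searched on both strands, as was the palindromic E-box CACGTG, a site type of HES and HEY proteins. The runs below are 5′ to 3′ on the strand of the gene, end where the GENCODE exon or the RefSeq start begins, and carry the matched letters in capitals. They cover chr10:30842802-30843033 for Hey2, chr2:137116645-137116770 for Jag1 and chr17:32166891-32167140 for Notch3, all on the minus strand.
Hey2: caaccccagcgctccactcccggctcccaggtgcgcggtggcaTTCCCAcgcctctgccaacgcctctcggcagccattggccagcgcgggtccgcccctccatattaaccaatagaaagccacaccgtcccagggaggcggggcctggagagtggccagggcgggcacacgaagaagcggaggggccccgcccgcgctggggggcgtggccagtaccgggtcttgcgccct
Jag1: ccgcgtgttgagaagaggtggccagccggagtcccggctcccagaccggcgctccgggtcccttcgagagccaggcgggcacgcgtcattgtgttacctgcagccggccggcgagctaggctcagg
Notch3: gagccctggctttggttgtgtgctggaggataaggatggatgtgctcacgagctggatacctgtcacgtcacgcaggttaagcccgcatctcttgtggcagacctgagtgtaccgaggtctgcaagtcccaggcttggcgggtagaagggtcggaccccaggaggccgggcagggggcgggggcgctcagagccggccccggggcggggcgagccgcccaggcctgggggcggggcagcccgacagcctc
The window of Hey2 held TGGGAA at 2 places. Its reverse complement TTCCCA lies from 30842985 to 30842990 and begins 207 bases before the RefSeq start. On the strand of the gene TGGGAA lies from 30842781 to 30842786 and begins 3 bases before the RefSeq start. This second match falls in the longer GENCODE exon, outside the printed run. Among the 32851 promoter windows, 25.6% held TGGGAA and 7.15% held CACGTG. Of the 7 members with a window, Hey2 alone held TGGGAA and 0 held CACGTG. A match describes the letters in this window and not a bound site.

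Among the receptors, Notch2 was the most abundant transcript and Notch3 the one whose libraries did not overlap between the labels. Levels of different genes are compared here as CPM per kilobase of exon (GENCODE lengths). Notch2, a receptor with a broad expression, was at 5.28 to 12.5 CPM per kilobase in the 6 libraries, and made up 72.8% to 87.9% of the summed level of the 4 receptors. Notch1, known for its role in T-cell and arterial fate, made up 8.33% to 25.1%. Notch3 contributed 0.995%, 1.91% and 1.72% across Ctl MSC 1 to 3, against 7.16%, 5.04% and 8.66% across MSC-TPr 1 to 3, so that its share of the receptor transcripts did not overlap between the groups. Notch4 contributed 0.373% to 2.31%.

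Notch3, on chromosome 17 of mm10 from 32120820 to 32166852, measured 0.725, 1.87 and 1.54 CPM across Ctl MSC 1 to 3, against 4.48, 2.66 and 10.7 CPM across MSC-TPr 1 to 3. Every MSC-TPr library was above every Ctl MSC library, but the MSC-TPr libraries spread widely, with a mean of 5.95 ± 4.22 CPM against 1.38 ± 0.590 CPM (SD, n = 3 each). The log2 fold change was 2.103 (SE 0.619, edgeR adjusted p = 0.209) over all 6 libraries, while libraries 2 and 3 gave 1.99 (SE 0.648, edgeR adjusted p = 0.0483). With DESeq2 the adjusted p over 6 libraries was 0.0228. Exons of Notch3 overlap Gm17276 on the opposite strand, and it is not stated whether the counting used the strand.

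Notch4, on chromosome 17 from 34564268 to 34588503, measured 1.15, 0.321 and 0.276 CPM across Ctl MSC 1 to 3, against 0.609, 1.01 and 2.23 CPM across MSC-TPr 1 to 3, which is 5 to 48 reads per library. Ctl MSC 1 was above MSC-TPr 1 and 2, so the groups overlapped. The difference depended on the libraries numbered 1, as the log2 fold change was 1.16 (SE 0.737, edgeR adjusted p = 0.513) over all 6 and 2.45 (SE 0.546, edgeR adjusted p = 0.0144) over libraries 2 and 3. Of the 10 endothelial markers, Kdr had 9 to 54 reads per library, Egfl7 21 to 49 and Vwf 8 to 386, while Pecam1 and Cdh5 had at most 4. Of these, 3 were tested over libraries 2 and 3, with 0 called higher and 1 lower. The pericyte and smooth muscle list summed to 519.7 to 686 CPM across Ctl MSC and to 129.6, 1196 and 1251 CPM across MSC-TPr 1 to 3. Acta2, Tagln, Cnn1 and Mcam, the 4 tested genes of the latter list, were called higher over libraries 2 and 3. So were Notch3 and Notch4. The median log2 fold change of the 4 genes there was 2.08, while 0 of them were called over all 6. With the cell division covariate 0 of the 4 were called, 1 log2 fold change was positive and 3 were negative, with a median of −0.39. Cnn1, a smooth muscle calponin, was at 29.5, 4.38 and 5.41 CPM across Ctl MSC 1 to 3, against 0.720, 42.5 and 51.7 CPM across MSC-TPr 1 to 3. Of the 6 untested genes, Kcnj8 and Abcc9 had at most 3 reads in any library. Myh11 had 0, 2 and 5 reads across Ctl MSC 1 to 3, against 3, 2 and 1 reads across MSC-TPr 1 to 3. Rgs5 had 0 to 10 reads per library, Cspg4 1 to 11 and Des 1 to 7. The part of both lists in the levels of Notch3 and Notch4 was not tested.

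Notch1, on chromosome 2 from 26457903 to 26516663, went the other way. It measured 7.92, 28.2 and 26.7 CPM across Ctl MSC 1 to 3, against 11.5, 7.87 and 12.2 CPM across MSC-TPr 1 to 3. Ctl MSC 2 and 3 stood above the other 4 libraries, and Ctl MSC 1 lay in the range of the MSC-TPr libraries. Over libraries 2 and 3 Notch1 fell from 27.5 ± 1.06 CPM to 10.03 ± 3.06 CPM (SD, n = 2 each), with −1.44 as the log2 fold change (SE 0.219, edgeR adjusted p = 0.0039). Over all 6 libraries it was −0.99 (SE 0.485, edgeR adjusted p = 0.395), and the difference did not exceed the spread between libraries. Its exons overlap 0610009E02Rik and Gm13568 on the opposite strand.

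Notch2, on chromosome 3 from 98013527 to 98150361, measured 83.9, 94.3 and 85.7 CPM across Ctl MSC 1 to 3, against 62.5, 55.4 and 131 CPM across MSC-TPr 1 to 3. The Ctl MSC libraries were close to each other, whereas MSC-TPr 3 was above all of them and MSC-TPr 1 and 2 below. The log2 fold change was −0.08 (SE 0.337, edgeR adjusted p = 0.929) over 6 libraries, while libraries 2 and 3 gave 0.06 (SE 0.368, edgeR adjusted p = 0.909), so the sign depended on the libraries used. It shares exon sequence with Gm42820 on the same strand, which makes its count uncertain.

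**Figure D2:**
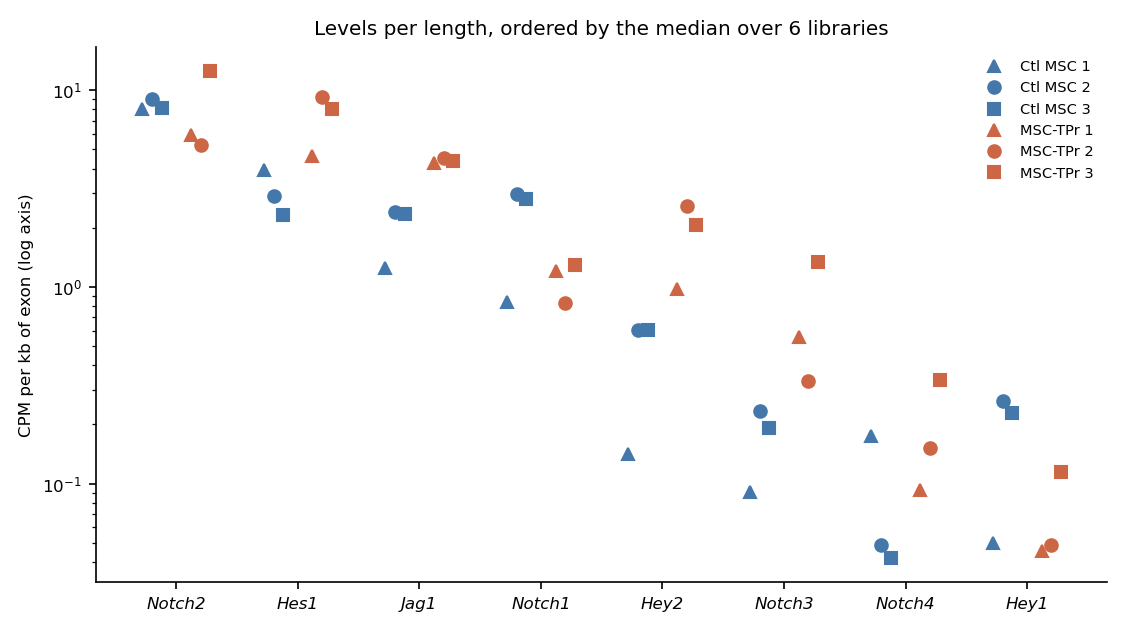
Level per length (CPM per kilobase of exon, log axis) of 8 members in each of the 6 libraries, with genes ordered by the median over libraries. Notch2 ranks highest with a median of 8.08, followed by Hes1 at 4.27 and Jag1 at 3.35, and the ranges of neighbouring genes overlap.

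Ordered by the median over 6 libraries, Notch2 (8.08 CPM per kilobase) was followed by Hes1 (4.27), Jag1 (3.35), Notch1 (1.25), Hey2 (0.792), Notch3 (0.283), Notch4 (0.123) and Hey1 (0.0824). The ranges of all these neighbours overlapped over libraries, and of the adjacent pairs only Hey2 and Notch3 kept their order in every library. Hes1 was above Jag1 in 5 of 6 libraries, and Hey2 above Notch3 in 6 of 6. Jag1 was above Notch1 in 3 of 3 MSC-TPr libraries and in 1 of 3 Ctl MSC libraries, where Notch1 was the higher of the pair in Ctl MSC 2 and 3.

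Of the Jagged ligands, which bind Notch receptors on adjacent cells, Jag1 was expressed and Jag2 was close to the limit of detection, with 7 reads in all. Jag1, on chromosome 2 from 137081456 to 137116644, measured 7.01, 13.5 and 13.2 CPM across Ctl MSC 1 to 3, against 24.1, 25.5 and 24.6 CPM across MSC-TPr 1 to 3. All MSC-TPr libraries were close to each other (24.7 ± 0.716 CPM, SD, n = 3) and above the Ctl MSC libraries (11.2 ± 3.66 CPM, SD, n = 3), of which Ctl MSC 1 was the lowest. The log2 fold change was 1.14 (SE 0.283) over 6 libraries, with an adjusted p of 0.170 by edgeR and of 0.0119 by DESeq2, and 0.91 (SE 0.128, edgeR adjusted p = 0.0030) over libraries 2 and 3. Jag1 had the smallest edgeR adjusted p of the 7 members tested over 6 libraries. Jag2, on chromosome 12 from 112907819 to 112929776, had 0, 1 and 0 reads across Ctl MSC 1 to 3, against 4, 0 and 2 reads across MSC-TPr 1 to 3, and was not tested.

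Among the targets, Hes1 and Hey2 rose over libraries 2 and 3, while Hey1 did not pass the test there and Heyl was near 0. Hes1, the repressor most widely used as a readout of Notch activity, lies on chromosome 16 from 30064384 to 30067796. It measured 5.74, 4.27 and 3.42 CPM across Ctl MSC 1 to 3, against 6.81, 13.5 and 11.7 CPM across MSC-TPr 1 to 3. The groups did not overlap, but Ctl MSC 1 and MSC-TPr 1 were near each other, 1.19-fold apart. The log2 fold change was 1.26 (SE 0.345) over 6 libraries, with an adjusted p of 0.190 by edgeR and of 0.0252 by DESeq2, and 1.72 (SE 0.198, edgeR adjusted p = 0.0016) over libraries 2 and 3.

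Hey2, a repressor known from cardiac and arterial development, lies on chromosome 10 from 30832359 to 30842801. It measured 0.363, 1.55 and 1.54 CPM across Ctl MSC 1 to 3, against 2.49, 6.57 and 5.24 CPM across MSC-TPr 1 to 3. Ctl MSC 1 had 6 reads and was the lowest library, and MSC-TPr 1 was the lowest of its group. The means were 1.15 ± 0.684 CPM and 4.77 ± 2.08 CPM (SD, n = 3 each), with a log2 fold change of 2.04 (SE 0.619) over 6 libraries and an adjusted p of 0.218 by edgeR and of 0.0293 by DESeq2. Over libraries 2 and 3 the log2 fold change was 1.93 (SE 0.239, edgeR adjusted p = 0.0020). Its promoter window is the one with the TGGGAA letters shown above.

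Hey1, on chromosome 3 from 8663359 to 8667256, had 2, 12 and 10 reads across Ctl MSC 1 to 3, against 2, 2 and 6 reads across MSC-TPr 1 to 3. It did not pass the filter over 6 libraries, and over libraries 2 and 3 its log2 fold change of −1.50 (SE 0.535) did not pass the test (edgeR adjusted p = 0.063). Heyl, on chromosome 4 from 123233556 to 123249875, had 1 read in Ctl MSC 1 and 0 in the other libraries. The HEY genes thus differed in level, with Hey2 at 332 reads in all, Hey1 at 34 and Heyl at 1.

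**Figure D3:**
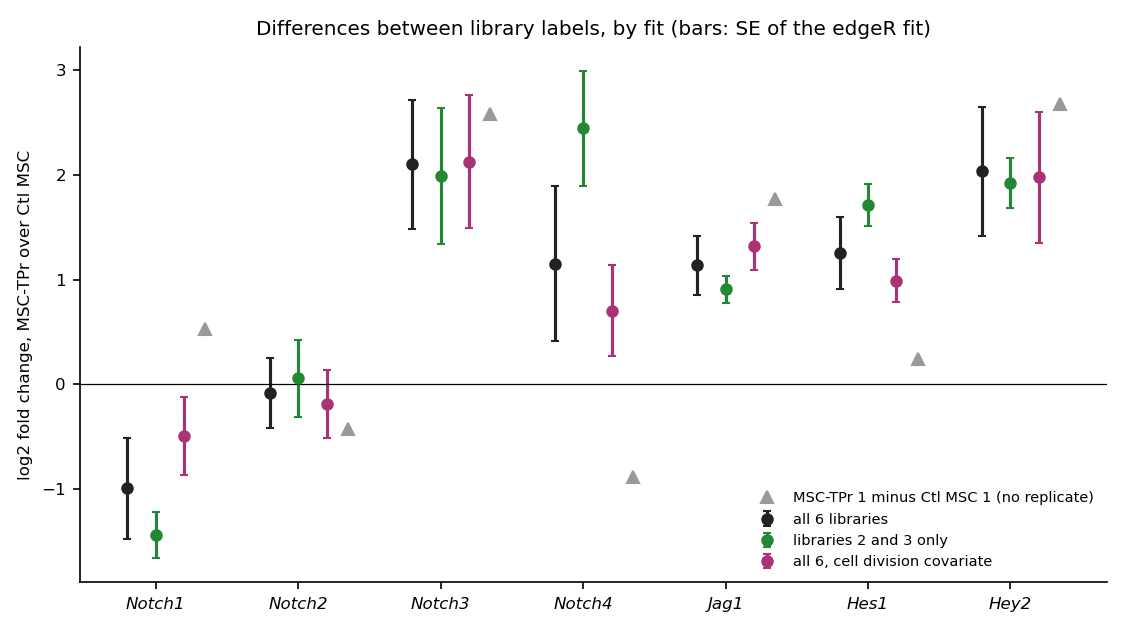
Log2 fold change of MSC-TPr over Ctl MSC (vertical axis) for the 7 members tested over all 6 libraries, by 3 edgeR fits with bars for the SE, and the difference between MSC-TPr 1 and Ctl MSC 1 alone as grey triangles. Notch3, Jag1, Hes1 and Hey2 are above 0 in each fit and in the pair numbered 1, whereas Notch1 and Notch4 change sign in that pair. For Notch3, Jag1, Hes1 and Hey2 the sign in the pair follows from their lack of overlap over all 6 libraries.

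The libraries numbered 1 were also compared with each other, without a replicate check. MSC-TPr 1 was 6.87-fold above Ctl MSC 1 for Hey2, 6.19-fold for Notch3, 3.44-fold for Jag1 and 1.19-fold for Hes1. For these genes the direction was fixed by their lack of overlap over all libraries. MSC-TPr 1 was 1.45-fold above Ctl MSC 1 for Notch1, which was lower in MSC-TPr over libraries 2 and 3. It was at 0.531 of the level of Ctl MSC 1 for Notch4, which was higher in MSC-TPr over libraries 2 and 3. Notch2 was at 0.745 of that level.

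The members were also compared within each side of the cell division split, which placed Ctl MSC 1, MSC-TPr 2 and 3 on one side and Ctl MSC 2, 3 and MSC-TPr 1 on the other. Within each side, the MSC-TPr libraries had more Jag1 than the Ctl MSC libraries, with 24.1 against 13.2 and 13.5 CPM on the side of low cell division and 24.6 and 25.5 against 7.01 CPM on the side of high cell division. The same held within both sides for Notch3, Hes1 and Hey2. For these genes and Jag1 this follows from the lack of overlap over all 6 libraries, so it is no separate check. Notch4 did not keep apart within the high side, where Ctl MSC 1 (1.15 CPM) lay between MSC-TPr 2 (1.01 CPM) and MSC-TPr 3 (2.23 CPM). Notch1 was lower in MSC-TPr 1 than in Ctl MSC 2 and 3 on the low side, and on the high side Ctl MSC 1 (7.92 CPM) lay between MSC-TPr 2 (7.87 CPM) and MSC-TPr 3 (12.2 CPM). The Pearson correlation (r) of log2 CPM with the mean level of the cell division genes was 0.89 for Notch4, 0.73 for Hes1 and −0.78 for Notch1. For the other tested members r was −0.002 to 0.13. With this mean level as a covariate, edgeR called 2 members over all 6 libraries, both higher. Of all genes tested it called 4.74% higher and 7.40% lower. On the high side Ctl MSC 1 was the only Ctl MSC library, and on the low side MSC-TPr 1 the only MSC-TPr library. The calls with the covariate thus lean on the libraries numbered 1, which did not sit with their labels. Jag1 then rose by 1.32 (SE 0.229, edgeR adjusted p = 0.0117) and Hes1 by 0.99 (SE 0.207, edgeR adjusted p = 0.0225), while Notch3 (2.13, edgeR adjusted p = 0.063) and Hey2 (1.98, edgeR adjusted p = 0.074) missed the threshold.

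**Figure D4:**
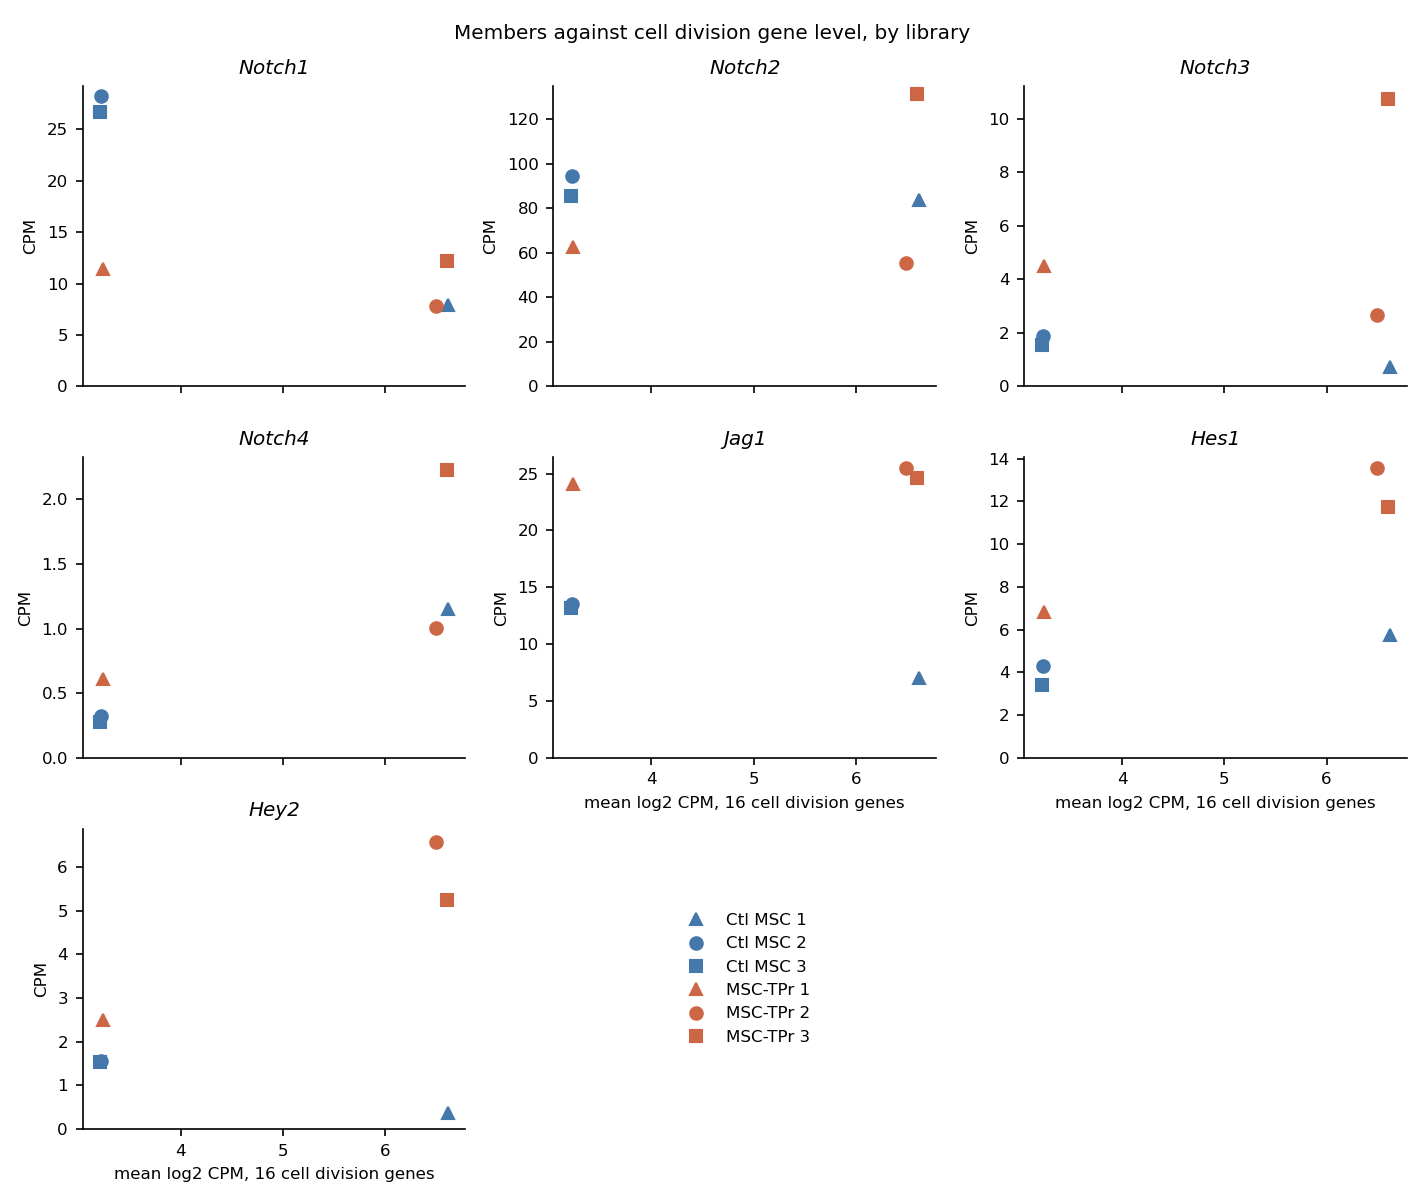
CPM of 7 members (vertical axes, starting at 0) against the mean log2 CPM over 16 genes of cell division (horizontal axis), 1 point per library. The libraries form a set near 3.2 and a set at 6.50 to 6.62. Within both sets the MSC-TPr points of Notch3, Jag1, Hes1 and Hey2 lie above the Ctl MSC points. This follows from the lack of overlap of these genes over all libraries.

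The pattern of Hey2, the tested member with the largest SD of log2 CPM over the 6 libraries (1.47), was compared with that of every other gene tested. The 5 genes with the highest Pearson correlation of log2 CPM were Cttnbp2nl (r = 0.998), 4930402H24Rik (r = 0.993), Trpc1 (r = 0.987), Fjx1 (r = 0.987) and Smad7 (r = 0.985), each over the same 6 libraries. Smad7, an inhibitor of TGF-beta signalling, measured 25.4, 36.0 and 37.1 CPM across Ctl MSC 1 to 3, against 42.4, 52.8 and 45.04 CPM across MSC-TPr 1 to 3. With so few libraries and so many genes, these values describe likeness in this set of libraries only.

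The other genes of the pathway, from ligands to further targets, were counted as a list. Of 43 listed, 33 passed the filter over 6 libraries, 0 were called higher and 0 lower by edgeR, 3 had an unadjusted p under 0.05 (1801 of 11974 among all genes tested), and DESeq2 called 0. The median of their log2 fold changes was −0.10 and the range −0.96 to 0.46, where the median of all genes tested was 0.01. Over libraries 2 and 3, 34 were tested, 2 were called higher and 10 lower, beside 20.6% higher and 19.4% lower among all genes tested in that fit, with a median of −0.34 against 0.00 for all genes (−0.001563 before rounding).

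The Delta-like ligand Dll1 was the gene of this list that was both called over libraries 2 and 3 and free of overlap over all 6. It measured 0.242, 1.71 and 2.04 CPM across Ctl MSC 1 to 3, against 0.222, 0.118 and 0.232 CPM across MSC-TPr 1 to 3. Ctl MSC 1 was hardly above the MSC-TPr libraries, with 4 reads against 4, 2 and 5 reads in MSC-TPr 1 to 3. The lack of overlap thus rests on the scaling for library size and lies within counting error. Dll1 did not pass the filter over 6 libraries. Over libraries 2 and 3 the log2 fold change was −3.32 (SE 0.428, edgeR adjusted p = 0.0022). Exons of Dll1 overlap A930024N18Rik on the opposite strand. Dll4 had 0 reads in every library, Dll3 9 reads in all and the non-canonical ligand Dlk1 1 read in all. Dlk2, another non-canonical ligand, was at 5.02, 0.374 and 0.386 CPM across Ctl MSC 1 to 3, against 0.222, 1.83 and 2.27 CPM across MSC-TPr 1 to 3, so that it followed the cell division split rather than the labels (log2 fold change −0.40 over 6 libraries, SE 1.19, edgeR adjusted p = 0.903). With the cell division covariate Dlk2 was called lower (edgeR adjusted p = 0.0459). Its exons overlap Abcc10 on the opposite strand.

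Of the 10 genes for receptor cleavage, all were tested and 0 were called over 6 libraries, with log2 fold changes from −0.96 to 0.27. Adam10, the protease of the first ligand-dependent cut, was at 168 to 171 CPM across Ctl MSC and 132 to 161 CPM across MSC-TPr, which gave a log2 fold change over 6 libraries of −0.23 (SE 0.138, edgeR adjusted p = 0.483). Aph1a, a subunit of gamma-secretase, was the other gene of this group whose libraries did not overlap, at 88.0 to 97.2 CPM and 79.03 to 85.8 CPM (log2 fold change −0.14, SE 0.130, edgeR adjusted p = 0.651). Aph1c, a paralog of Aph1b, was called lower over libraries 2 and 3 (−2.77, SE 0.553, edgeR adjusted p = 0.0098) with 84 reads in all. Over all 6 libraries Aph1c gave −0.96 (SE 0.910, edgeR adjusted p = 0.669). Exons of Aph1a overlap Car14 and those of Aph1c overlap Gm17098, each on the opposite strand. These genes and those that follow were chosen after their values were seen.

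Glycosyltransferases modify the EGF repeats of the receptors and so set which ligand they answer. Lfng followed the cell division split, with 6.40, 2.03 and 1.77 CPM across Ctl MSC 1 to 3, against 2.05, 3.31 and 4.41 CPM across MSC-TPr 1 to 3, and was called higher over libraries 2 and 3 (1.03, SE 0.260, edgeR adjusted p = 0.0215) whereas all 6 libraries gave −0.06 (SE 0.581, edgeR adjusted p = 0.974). Rfng was called lower over libraries 2 and 3 (−0.63, SE 0.153, edgeR adjusted p = 0.0187) but not over all 6 (−0.42, SE 0.206, edgeR adjusted p = 0.398). Mfng had 0 reads in every library.

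In the group of endocytosis and ubiquitination, 9 of 11 genes were tested over 6 libraries. Numb, an inhibitor of Notch that acts on its endocytosis, was at 14.7 ± 1.14 CPM under the Ctl MSC label and 19.9 ± 0.920 CPM under the MSC-TPr label (SD, n = 3 each), and the ubiquitin ligase Itch at 65.3 to 89.9 CPM and 98.9 to 126 CPM. Both were higher without overlap, with log2 fold changes of 0.43 (SE 0.170, edgeR adjusted p = 0.303) and 0.45 (SE 0.186, edgeR adjusted p = 0.330), and neither was called over libraries 2 and 3. With the cell division covariate, Itch was called higher (edgeR adjusted p = 0.0201). The ligases Mib1 and Mib2, which act on the ligands in the sending cell, and Neurl1a and Dtx3 were called lower over libraries 2 and 3, with log2 fold changes of −0.57, −1.06, −1.16 and −1.67. The groups overlapped for all 4 once the libraries numbered 1 were included. All 4 followed the cell division split. Dtx3 was at 25.3 to 32.3 CPM on the side of high cell division and 53.9 to 93.7 CPM on the low side. Neurl1a shares exon sequence with AC132288.2 on the same strand, and Numb overlaps Gm46367 on the opposite strand.

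In the nuclear complex, all 8 genes were tested. Rbpj, the DNA-binding partner of the receptor, was at 336.5, 657 and 628 CPM across Ctl MSC 1 to 3, against 718, 426 and 399 CPM across MSC-TPr 1 to 3. Rbpj thus followed the cell division split rather than the labels, with Ctl MSC 1 and MSC-TPr 1 at the opposite ends. The log2 fold change was −0.63 (SE 0.119, edgeR adjusted p = 0.0079) without the libraries numbered 1 and −0.07 (SE 0.344, edgeR adjusted p = 0.942) over all 6. Spen, a corepressor that binds RBPJ, gave −1.06 (SE 0.336, edgeR adjusted p = 0.0438) and −0.43 (SE 0.493, edgeR adjusted p = 0.729) in the same order. Its libraries also followed the split, at 51.6 to 112 CPM on the side of high cell division and 137 to 178 CPM on the low side. Snw1, a cofactor of the complex, was higher without overlap, at 76.6 to 83.3 CPM in Ctl MSC and 90.9 to 125 CPM in MSC-TPr (log2 fold change 0.46, SE 0.163, edgeR adjusted p = 0.269), and its exons overlap Slirp on the opposite strand. Of the other targets, Hes5 had 0 reads in every library, Hes7 and Nrarp had 7 and 6 reads in all, and Hes6 was called lower over libraries 2 and 3 (−0.61, SE 0.155, edgeR adjusted p = 0.0217).

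**Figure D5:**
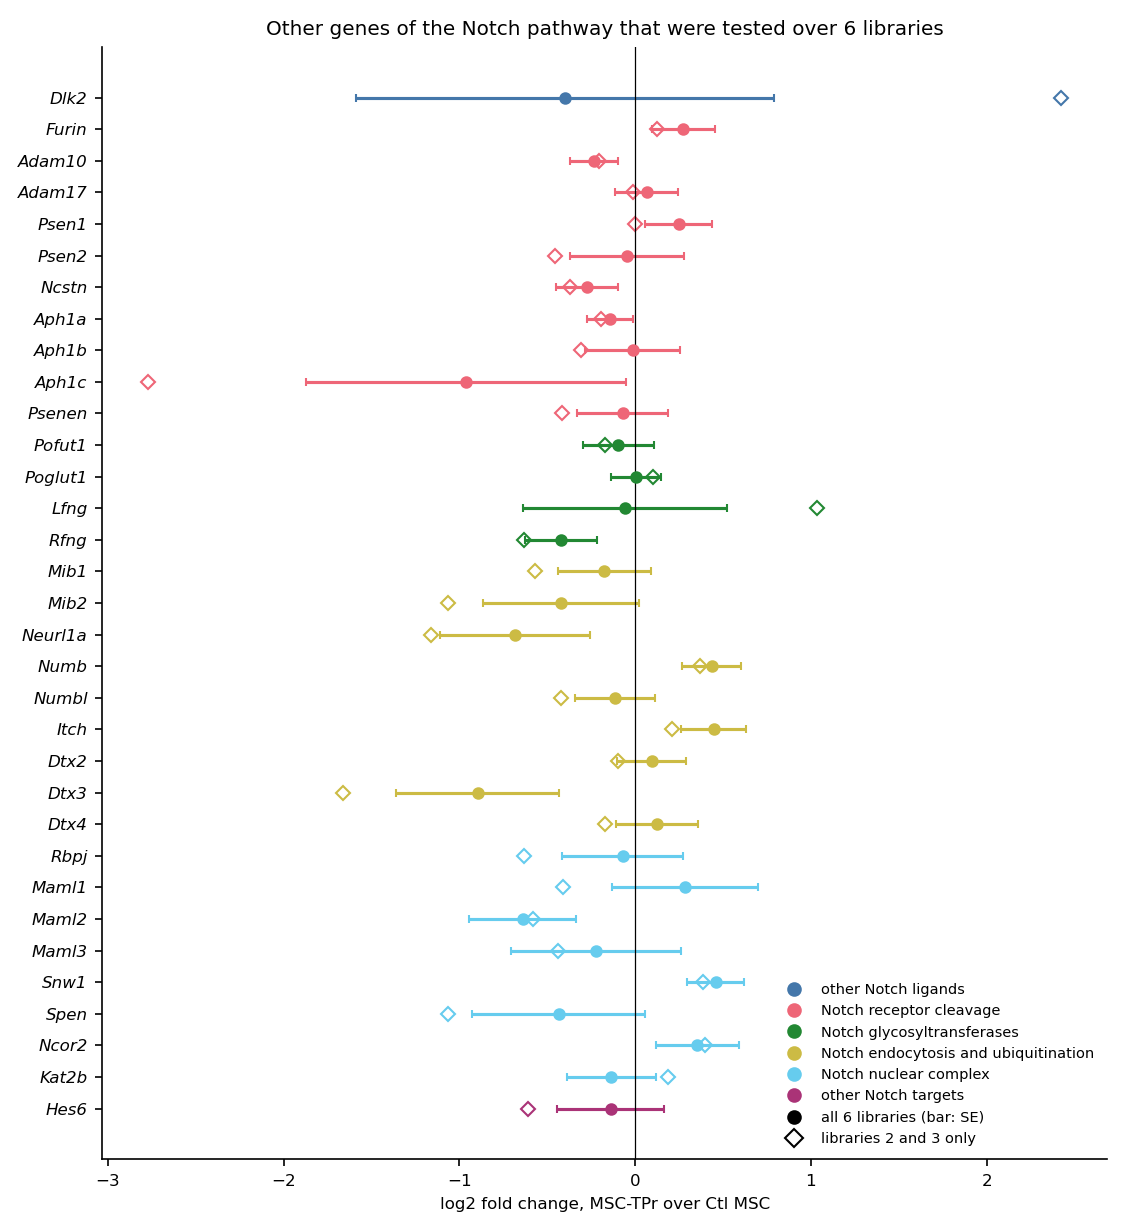
Log2 fold change of MSC-TPr over Ctl MSC (horizontal axis) for the 33 other pathway genes tested over all 6 libraries (filled circles, bars for the SE), with open diamonds for libraries 2 and 3 only and colours for the role in the pathway. The values over 6 libraries run from −0.96 to 0.46, and several diamonds lie farther from 0.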

How the data were processed

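RNA-seq counts of 6 libraries were analysed, with groups and replicate numbers from the sample titles. The counts per gene were deposited by the authors without normalization, after alignment to mm10 and counting with Htseq-count; the submitters' processing notes also list CASAVA 1.8.2, Trimmomatic 0.35 and TopHat2 2.1.0. The annotation and the strand setting of the counting are not given in the sources used here. Reads in the rows that name no gene (13.8% to 20.8% of the table per library) were left out.

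Counts were tested in R 4.3.3 with edgeR 4.0.16 (TMM, filterByExpr, quasi-likelihood test, group as the only term, Benjamini-Hochberg over all genes tested); the SE is the log2 fold change divided by the square root of F. DESeq2 1.42.0 was an alternative, with others on normalization, filter, libraries, replicate block and a cell division covariate. An exact permutation test of 3 against 3 libraries cannot go below p = 0.1 and was not used. Coordinates and exon lengths came from GENCODE M21 (GRCm38), and promoters from RefSeq. Named were all members, listed pathway genes called over 6 libraries, or called over libraries 2 and 3 without overlap over all 6, and the 5 genes most like the most variable member; the other pathway genes named in the text lie outside this rule and were chosen after their values were seen. The members, the lists and the fit over libraries 2 and 3 were chosen with earlier results of these data known.

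Whether the replicate numbers pair the libraries was checked by the correlation of deviations from the group means across genes, which was −0.755, −0.574 and −0.590 for numbers 1, 2 and 3. Deviations from a group mean cancel out within the group, so these values are not independent and cannot settle whether the numbers mark pairs. The numbers were not used as pairs in the main fit.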

Additional observations from a re-analysis of the deposited data

How the results depend on the processing

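The number of members called, 0 higher and 0 lower over all 6 libraries, was the same under RLE and upper quartile normalization, other filters, no minimum fold change, each library left out in turn and the replicate block. DESeq2 called 4 higher and the cell division covariate 2 higher. Libraries 2 and 3 only gave 5 higher and 1 lower, with edgeR and with DESeq2. Libraries 2 and 3 were set apart because earlier results of these data had placed those numbered 1 with the other label. The DESeq2 fit on them was chosen after seeing the data. Other pathway genes, 0 and 0 over all 6, were 2 higher and 10 lower with libraries 2 and 3 only (1 and 10 with DESeq2), 1 and 1 with the covariate, and 0 to 1 lower with a library left out, the 1 without Ctl MSC 1. All genes called, 3 higher and 48 lower, became 244 and 439 with DESeq2, 567 and 886 with the covariate, 2498 and 2356 with libraries 2 and 3 only (2412 and 2153 with DESeq2), and 29 lower with at least 10 counts in every library. The replicate block gave 0 and 0, and leaving out a library gave 0 to 11 higher and 0 to 105 lower. With the block the edgeR adjusted p of the members ran from 0.504 to 0.928, and it changed no call of a member. Same-numbered libraries deviated in opposite directions, but these deviations are not independent of each other within a group. Whether the numbers mark pairs is not stated in the sources used here.

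Notch3, Notch4, Jag1, Hes1 and Hey2 stayed positive and Notch1 negative under every alternative that gave a value. Hey2 and Notch4 had no value with at least 10 counts in every library. Notch2 changed sign, with 0.057 over libraries 2 and 3 (0.059 with DESeq2) and −0.57 to 0.14 with each library left out. Without 1 library the log2 fold change of Notch4 ran from 0.49 to 2.09 and that of Notch3 from 1.37 to 2.46. Depth limits Hey1, Jag2 and Heyl, with 34, 7 and 1 reads in all.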
